A study of Mus musculus with 12 samples.

Results

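The aminoacyl-tRNA synthetases were examined in liver RNA of mice that lack Phgdh in hepatocytes. The 36 genes were chosen by symbol, through the RefSeq accession of each probe, and comprise 20 cytosolic and 16 mitochondrial enzymes, and 33 of them were among the 16915 genes with a signal well above background on every array. The brightest probe stood for a gene with several probes. Liver RNA came from 6 LKO mice (Alb +/Cre; Phgdh flox/flox) and 6 littermate Floxed mice (Phgdh flox/flox), all C57BL/6 males 30 weeks old, kept under 12 h of light per day and fed a chow with 20% casein. Both genotypes carry the conditional Phgdh allele, and only LKO mice carry Cre, which the albumin promoter drives in hepatocytes, so that other liver cells of LKO mice keep Phgdh. Each mouse was measured on 1 single-color Agilent array, and values are log2 intensities after quantile normalization over the 12 arrays.

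A synthetase joins an amino acid to the tRNAs that carry it to the ribosome, and the enzymes of cytosol and mitochondria are in most cases products of separate nuclear genes. Phgdh catalyzes the first step of serine synthesis from a glycolytic intermediate, and serine is in turn a source of glycine and of the carbon of cysteine. Uncharged tRNA activates the kinase Gcn2 (Eif2ak4), which leads to translation of the transcription factor Atf4, and many genes of cytosolic synthetases are known targets of Atf4. The paper reports no significant difference between the genotypes in liver serine or glycine, or in serum serine. The comparison of LKO with Floxed livers addresses whether synthetase mRNA levels differ when hepatocytes lack Phgdh, not whether they respond to a measured lack of serine.

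The arrays lay on 3 slides, and genotype and slide overlapped in large part. Floxed mice 1 to 4 were on slide 1, LKO mice 3 to 6 on slide 3, and slide 2 alone held both genotypes, with Floxed mice 5 and 6 and LKO mice 1 and 2. Between 21614 and 24252 probes per array were well above background. Phgdh measured 4.81, 5.17 and 5.50 (lowest, median and highest log2 intensity) in Floxed mice and 4.23, 4.57 and 5.30 in LKO mice. The difference was -0.48 (SE 0.18, exact permutation p = 0.0346, limma adjusted p = 0.451). The paper found the deleted allele in LKO livers by genotyping PCR, and it reports reduced Phgdh there by qRT-PCR and by Western blot. On the arrays its probe was dim, with 8.34% of the genes tested dimmer still. LKO 1 at 5.07 and LKO 2 at 5.30 lay inside the Floxed range, and the other 4 LKO mice lay below it. The slide 2 difference was -0.05, and whether the probe lies in the deleted exons is not known here. Values without the arrays labelled LKO 1 and LKO 2 are therefore given beside the results that rest on them; all LKO arrays that then remain are on slide 3, where genotype and slide cannot be told apart. The 8 hepatocyte markers were well above background on all arrays, and 0 of 8 passed the unadjusted limma threshold. Among them Serpina1a held the same value, 18.77, on every array after quantile normalization and could not pass.

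The share of synthetases past the threshold was near that of all genes. At an unadjusted limma p below 0.05, the criterion of the study's array methods, 2 of 33 synthetases passed: Sars2, the mitochondrial seryl-tRNA synthetase, was higher and Rars, the cytosolic arginyl-tRNA synthetase, was lower in LKO livers. Over all genes tested 8.35% passed, 4.92% as higher and 3.43% as lower, against 6.06% of the synthetases. After Benjamini-Hochberg adjustment over all genes 0 passed at 0.05 in the limma test, with a smallest adjusted p of 0.132. The 95% interval lay within a 1.5-fold change in either direction for 32 of 33 synthetases, all but Sars2, and for 78.2% of all genes. These intervals come from the fit without slide, and 24 of the 33 synthetases were brighter than the median gene, so that the 2 shares are not like for like. The groups were separate, with no overlap of their values, for 0 of 33 synthetases and for 0.296% of all genes. With slide as a block, which rests the genotype difference on the 4 arrays of slide 2, 0 of 33 synthetases and 1.87% of all genes passed at the unadjusted threshold.

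**Figure D1:**
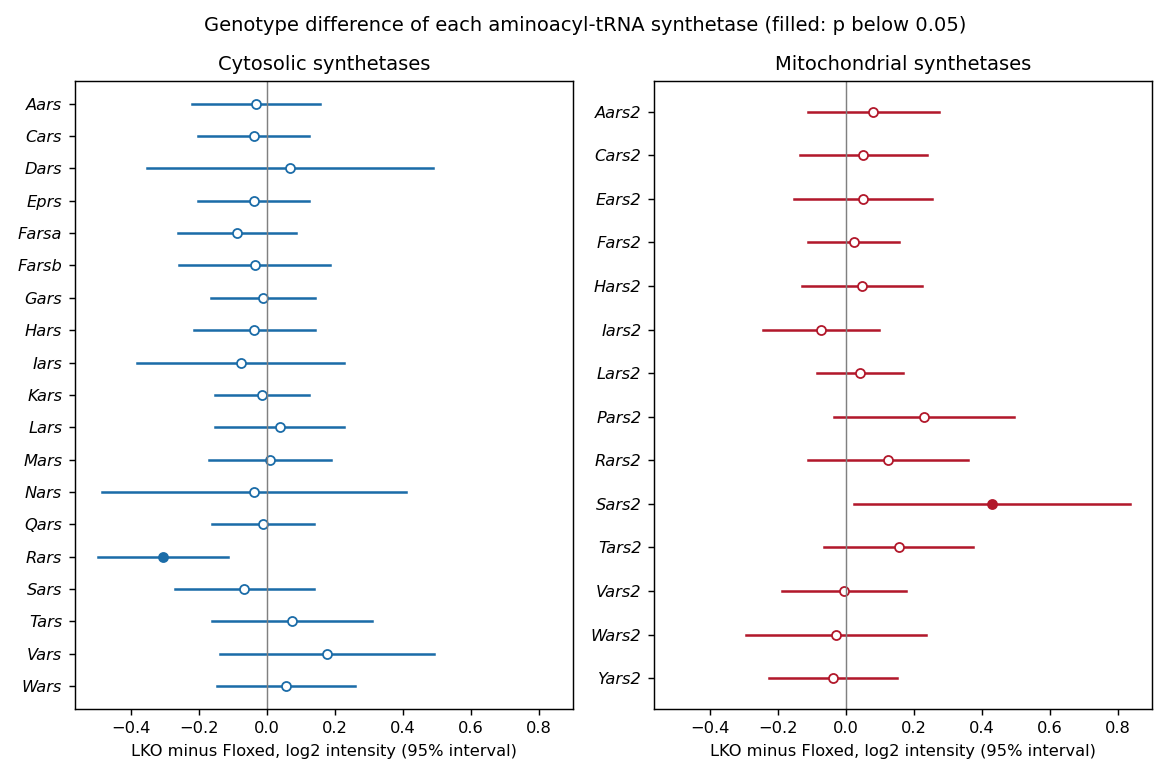
Log2 difference LKO minus Floxed (x axis) with its 95% interval for 19 cytosolic and 14 mitochondrial synthetases (y axis); filled points have an unadjusted limma p below 0.05. Rars at -0.31 and Sars2 at 0.43 are the 2 filled points, and the other 31 intervals hold 0.

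Sars, the cytosolic seryl-tRNA synthetase, charges serine tRNAs and also the selenocysteine tRNA. Its intensity was 12.07, 12.28 and 12.48 (lowest, median, highest) in Floxed and 12.07, 12.21 and 12.37 in LKO livers. The ranges overlapped almost fully, and 4 of 6 LKO mice lay below the Floxed median. The log2 difference was -0.07 (SE 0.10, 95% interval -0.27 to 0.14, exact permutation p = 0.470, adjusted p = 0.958), and on slide 2 it was 0.07. Gars, the glycyl-tRNA synthetase, serves both compartments from a single gene. It measured 12.55, 12.70 and 12.87 in Floxed and 12.62, 12.68 and 12.77 in LKO livers, so that every LKO value lay inside the Floxed range. The log2 difference of Gars was -0.01 (SE 0.07, 95% interval -0.16 to 0.14, exact permutation p = 0.838, adjusted p = 0.990), and -0.14 on slide 2. For neither gene was a difference detectable. The intervals, from the fit without slide, hold changes of up to 0.27 (Sars) and 0.16 (Gars) on the log2 scale in the direction of a fall. With slide as a block the SE was larger, 0.17 for Sars and 0.12 for Gars, so that these bounds are too narrow where slide matters.

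Sars2 charges the serine tRNAs inside mitochondria. In Floxed livers it measured 8.33, 8.86, 8.31 and 8.16 on slide 1 and 8.27 and 8.19 on slide 2, and in LKO livers 8.22 and 8.48 on slide 2 and 9.19, 8.80, 9.36 and 8.63 on slide 3. The 4 LKO arrays of slide 3 held 4 of the 5 highest values, while both LKO arrays of slide 2 lay within the Floxed range. The log2 difference was 0.43 (SE 0.19, 1.35-fold). Its limma p of 0.0393 (adjusted p = 0.565) was below the threshold, while an exact permutation of the 12 values, two-sided, gave p = 0.0671. It was 0.12 on slide 2 (SE 0.26, slide as a block) and 0.64 without LKO 1 and LKO 2 (exact permutation p = 0.0286). Leaving out single arrays moved the difference between 0.31 and 0.54, and it missed the limma threshold without any one of Floxed 1, 3, 4, 5 and 6 or LKO 3, 4 and 5.

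On the same slide 3 arrays, the endothelial marker Pecam1 and the pancreas acinar marker Cel were also high. Both probes were dim, with 21.6% and 17.0% of the genes tested dimmer. Pecam1 was 5.36 to 5.89 in Floxed livers, 5.79 and 5.84 in LKO 1 and LKO 2, and 6.78, 6.39, 6.63 and 6.61 in LKO 3 to LKO 6. Of the 5 endothelial markers, all measured, 1 passed the threshold. Stab2, Clec4g and Kdr differed by 0.14, 0.06 and 0.06, and Lyve1 by -0.13. The summed log2 level of the 5, carried mainly by the brighter Clec4g and Kdr, was 13.8 to 14.1 in Floxed and 13.8 to 14.5 in LKO livers. Of 9 pancreas acinar markers 3 were measured. Cel passed, while Ctrb1 and Amy2a5 differed by 0.16 each and did not pass. The summed level of the 3, carried mainly by the brighter Amy2a5, was 10.3 to 11.1 in Floxed and 10.6 to 11.2 in LKO livers. The part of other cell types or of the slide in the Sars2 difference was not tested, and in whole liver fewer cells of a type and less RNA per cell cannot be told apart.

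Serine also supplies cysteine. Cars, which charges cysteine tRNAs in the cytosol, measured 11.37, 11.48 and 11.68 in Floxed and 11.32, 11.46 and 11.55 in LKO livers, a log2 difference of -0.04 (SE 0.08, exact permutation p = 0.528, adjusted p = 0.972). Cars2, its mitochondrial counterpart, measured 8.37, 8.54 and 8.76 in Floxed and 8.39, 8.59 and 8.75 in LKO livers, a log2 difference of 0.05 (SE 0.09, exact permutation p = 0.481, adjusted p = 0.971). All LKO values of Cars2 lay inside the Floxed range, and a second, dimmer Cars2 probe differed by -0.16 (SE 0.11). Of the 5 synthetases for serine, glycine and cysteine, Sars2 alone passed the unadjusted threshold.

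**Figure D2:**
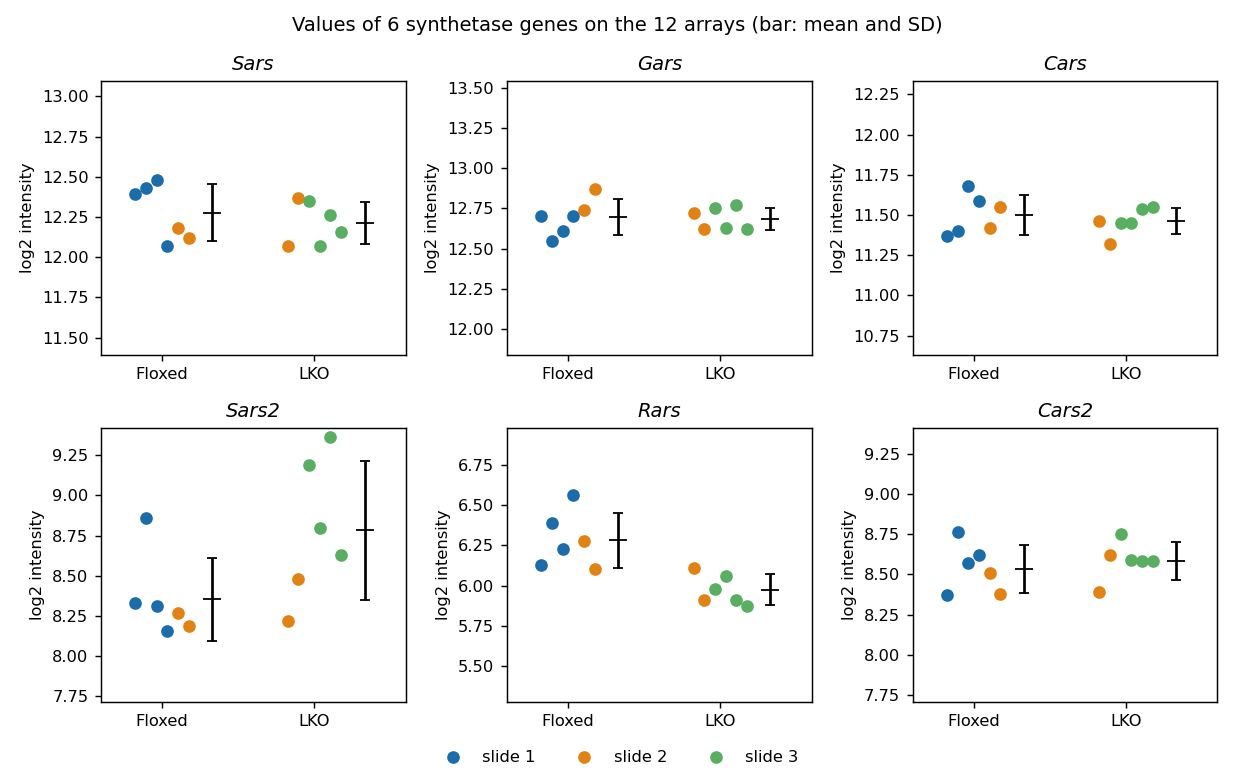
Log2 intensity (y axis) of Sars, Gars, Cars, Sars2, Rars and Cars2 on each array of the Floxed and LKO groups (x axis), colored by slide; black marks give the mean and SD of 6 mice, and every panel spans the same range. The raised Sars2 values are the 4 LKO arrays of slide 3 (8.63 to 9.36), while 5 of 6 LKO values of Rars lie below every Floxed value.

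The difference within the pair Sars and Sars2 shifted between the groups before adjustment but did not pass after it, as described further on. For this reason, and because serine and glycine synthetases were the genes of first interest, the sequences upstream of Sars, Gars and Sars2 are shown. They are the 250 bases before the annotated gene start, written along the gene (RefSeq, GRCm38.p6), with capitals for a match to the Atf4 element TGATGNAA on either strand, which occurs once, in Gars.
Sars, chr3:108445260-108445509, minus strand: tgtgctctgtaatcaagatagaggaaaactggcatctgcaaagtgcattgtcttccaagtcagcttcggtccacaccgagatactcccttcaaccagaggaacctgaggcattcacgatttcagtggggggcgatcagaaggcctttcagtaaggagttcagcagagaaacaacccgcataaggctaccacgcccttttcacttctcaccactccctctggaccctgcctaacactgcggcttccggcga
Gars, chr6:55037751-55038000, plus strand: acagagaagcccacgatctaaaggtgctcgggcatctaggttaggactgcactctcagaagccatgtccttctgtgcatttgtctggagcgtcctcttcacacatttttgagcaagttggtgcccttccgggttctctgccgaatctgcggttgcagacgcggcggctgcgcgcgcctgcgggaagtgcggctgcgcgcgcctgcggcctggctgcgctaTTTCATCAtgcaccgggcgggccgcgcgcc
Sars2, chr7:28741718-28741967, plus strand: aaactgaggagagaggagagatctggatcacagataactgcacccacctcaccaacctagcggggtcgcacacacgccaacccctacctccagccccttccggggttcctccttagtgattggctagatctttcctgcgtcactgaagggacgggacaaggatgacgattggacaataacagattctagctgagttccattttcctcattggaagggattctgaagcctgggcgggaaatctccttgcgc

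Rars encodes arginyl-tRNA synthetase, a member of the multisynthetase complex that holds several cytosolic enzymes together. It measured 6.10, 6.26 and 6.56 in Floxed and 5.87, 5.95 and 6.11 in LKO livers. Of the 6 LKO values 5 lay below the lowest Floxed value, and the other exceeded it by less than the SD of the Floxed group. The log2 difference was -0.31 (SE 0.09, 95% interval -0.50 to -0.12), or 0.809-fold, with an exact permutation p of 0.00433, a limma p of 0.00423 and an adjusted p of 0.333. Rars was -0.18 on slide 2 (SE 0.16, slide as a block) and -0.32 without LKO 1 and LKO 2 (exact permutation p = 0.00952). Its probe was the dimmest of the synthetases tested, with 23.4% of all genes dimmer. With normexp background correction the difference was smaller, -0.22 (SE 0.05).

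The other 7 enzymes of the complex (Eprs, Iars, Lars, Mars, Qars, Kars and Dars) did not pass the threshold. Their differences ran from -0.08 for Iars, the isoleucyl enzyme, to 0.07 for Dars, the aspartyl enzyme, and with Rars 5 of 8 were negative. Kars, which supplies lysyl-tRNA to both compartments, was among those with the smallest differences, with 12.10, 12.19 and 12.32 in Floxed and 12.10, 12.18 and 12.27 in LKO livers and a difference of -0.01 (SE 0.06). The 3 scaffold proteins of the complex, Aimp1, Aimp2 and Eef1e1, differed by -0.01, -0.04 and -0.20, and 0 of 3 passed in limma.

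Among the cytosolic enzymes outside the complex, the largest differences were those of Vars and Farsa, which charge valine and phenylalanine tRNAs. Vars measured 7.76, 8.04 and 8.33 in Floxed and 7.76, 8.29 and 8.52 in LKO livers, a log2 difference of 0.18 (SE 0.15, exact permutation p = 0.273), and -0.02 on slide 2. Farsa, the alpha subunit of the phenylalanyl enzyme, measured 10.10, 10.15 and 10.35 in Floxed and 9.95, 10.07 and 10.29 in LKO livers, a difference of -0.09 (SE 0.08, exact permutation p = 0.236), while its beta subunit Farsb differed by -0.04 (SE 0.10). Neither passed, and their ranges overlapped. Tars and Wars, for threonine and tryptophan, differed by 0.07 and 0.06, with Wars at -0.19 on slide 2, and Aars, Hars and Nars, for alanine, histidine and asparagine, by -0.03, -0.04 and -0.04. Nars, with the largest pooled SD of the cytosolic enzymes (0.39), ranged from 8.40 to 9.46 in Floxed and from 8.47 to 9.56 in LKO livers, and its slide 2 difference was -0.56 (SE 0.31, slide as a block).

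The cytosolic enzyme Yars, which charges tyrosine tRNAs, was too dim for the main comparison. Its probe was well above background on 5 of 6 Floxed and 4 of 6 LKO arrays. The values were 3.96, 3.74, 3.93, 4.32, 4.23 and 4.03 in Floxed and 3.95, 3.49, 3.10, 3.43, 3.07 and 2.96 in LKO livers, and 5 of 6 LKO values lay below every Floxed value. With no filter on dim probes the log2 difference of Yars was -0.70 (SE 0.17, limma p = 0.00145, adjusted p = 0.279, exact permutation p = 0.00649), and on slide 2 it was -0.41. Part of these values lie at the background, where a log2 difference is poorly determined. The 2 mitochondrial enzymes below the filter, Mars2 (well above background on 5 arrays) and Nars2 (11 arrays), differed by -0.52 (SE 0.31, exact permutation p = 0.156) and -0.10 (SE 0.17, exact permutation p = 0.563) without it.

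Of the 14 mitochondrial synthetases measured, those of proline and threonine, Pars2 and Tars2, followed Sars2 in the size of their difference. Pars2 measured 7.67, 8.13 and 8.32 in Floxed and 8.06, 8.33 and 8.55 in LKO livers, a log2 difference of 0.23 (SE 0.12, exact permutation p = 0.0909, adjusted p = 0.699), and 0.08 on slide 2. Tars2 measured 11.08, 11.19 and 11.42 in Floxed and 11.15, 11.36 and 11.62 in LKO livers, a difference of 0.15 (SE 0.10, exact permutation p = 0.141, adjusted p = 0.805). The 3 highest values of Tars2 were LKO arrays of slide 3, its slide 2 difference was -0.13, and without LKO 1 and LKO 2 the difference was 0.26 (exact permutation p = 0.0381) and passed the unadjusted limma threshold. A second Tars2 probe differed by -0.02 (SE 0.10). The arginyl enzyme Rars2 differed by 0.12 (SE 0.11, exact permutation p = 0.260), with all 6 LKO values above the Floxed median but inside the Floxed range, and by -0.05 on slide 2.

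The other mitochondrial enzymes lay closer to 0. Aars2, Ears2, Hars2, Lars2 and Fars2, for alanine, glutamate, histidine, leucine and phenylalanine, differed by 0.08, 0.05, 0.05, 0.04 and 0.02, and Vars2, Wars2, Yars2 and Iars2, for valine, tryptophan, tyrosine and isoleucine, by -0.01, -0.03, -0.04 and -0.07. Lars2 was the most uniform of them, at 9.49, 9.56 and 9.59 in Floxed and 9.51, 9.60 and 9.67 in LKO livers.

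As classes, the cytosolic and mitochondrial enzymes had median differences of opposite sign, both close to 0. In LKO livers 6 of 19 cytosolic enzymes were higher, with a median log2 difference of -0.03, and 10 of 14 mitochondrial enzymes were higher, with a median of 0.05, beside 48.8% higher and a median of -0.0035 over all genes. On slide 2 alone 4 of 19 and 6 of 14 were higher, with medians of -0.08 and -0.01. After scaling arrays by their 75th percentile 5 of 19 and 11 of 14 were higher, and with normexp background correction 9 of 19 and 11 of 14. Averaged over the mitochondrial enzymes, the deviation from each gene's mean was -0.11 to 0.01 in Floxed and -0.08 to 0.10 in LKO livers. LKO 2 to LKO 5 lay above every Floxed array, and LKO 1 and LKO 6 lay within the Floxed range. The cytosolic average spanned -0.06 to 0.06 in Floxed and -0.10 to 0.08 in LKO livers, so that the LKO range held the whole Floxed range. Of the 7 synthetases with several measured probes, 3 had the same sign on all of them, Cars2, Tars2, Vars2 and Wars did not, and 0 of the dimmer probes passed in limma at the unadjusted threshold.

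**Figure D3:**
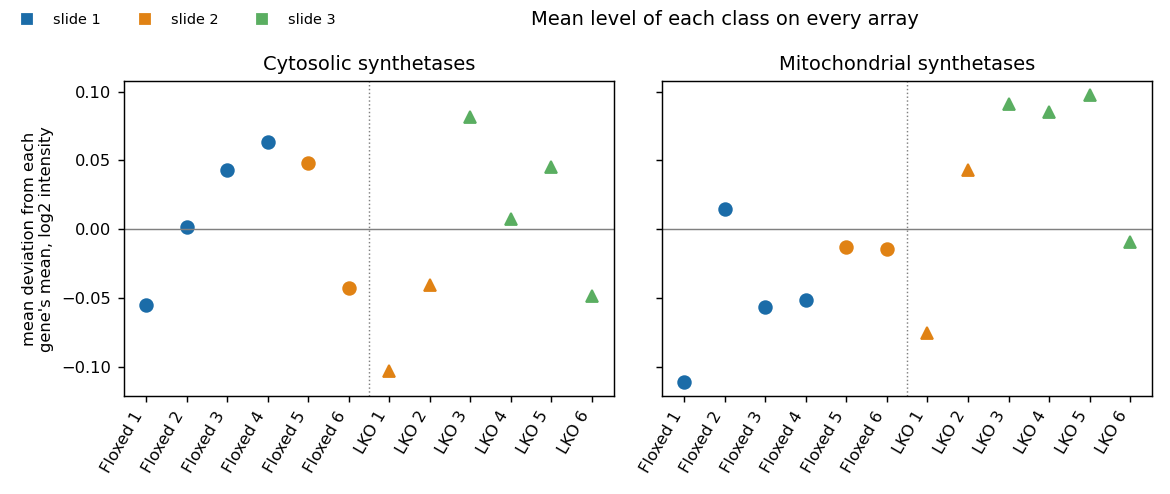
Mean deviation of the 19 cytosolic (left) and 14 mitochondrial (right) synthetases from each gene's mean over 12 arrays (y axis, log2 intensity) on every array (x axis), with circles for Floxed and triangles for LKO, colored by slide. In the mitochondrial class LKO 3, LKO 4 and LKO 5 of slide 3 stand highest, at 0.09, 0.09 and 0.10.

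To test whether the genotype difference itself differed within a pair, the log2 difference between the cytosolic and the mitochondrial probe was taken on each array for the 11 amino acids with both enzymes measured. The pair for serine, Sars and Sars2, shifted by -0.50 in LKO livers (SE 0.18, exact permutation p = 0.0152), and 4 of 6 LKO values lay below every Floxed value. The pair for arginine, Rars and Rars2, shifted by -0.43 (SE 0.12, exact permutation p = 0.00866), with 3 of 6 LKO values below every Floxed value. These pairs hold the 2 synthetases that passed alone, Sars2 at 0.43 and Rars at -0.31. Their shifts are therefore not independent of those single-gene differences. The other 9 pairs ranged from -0.11 for alanine (Aars and Aars2) to 0.18 for valine (Vars and Vars2) and had permutation p-values above the threshold. Like counts of values outside the Floxed range occurred among them. The valine pair had 4 of 6 LKO values above every Floxed value, and the phenylalanine pair (Farsa and Fars2) 3 of 6 below. Over the 11 pairs the smallest adjusted p was 0.0833, so that no shift passed after adjustment. In sign 9 of 11 were negative, that is, with a lower cytosolic enzyme relative to its mitochondrial counterpart. Among these the isoleucine pair at -0.0043 and the leucine pair at -0.0034 had practically no shift. The sign of both turned when certain single arrays were left out.

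The shifts of serine and arginine were smaller on slide 2. There the serine pair shifted by -0.06 and the arginine pair by -0.13, without a test, and 8 of 11 pairs were negative. Without LKO 1 and LKO 2 the serine pair shifted by -0.71 (exact permutation p = 0.00952) and the arginine pair by -0.44 (exact permutation p = 0.0286). The part of the slide in these shifts was not tested beyond these values.

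**Figure D4:**
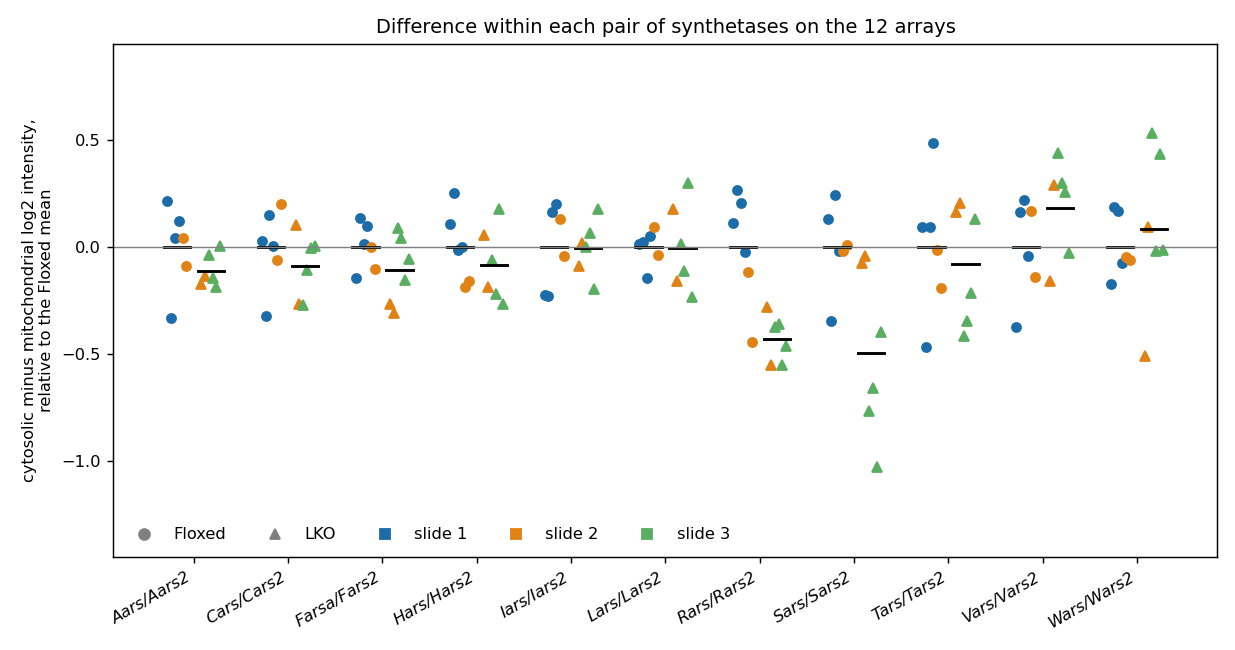
Cytosolic minus mitochondrial log2 intensity relative to the Floxed mean (y axis) for 11 pairs of synthetases (x axis) on each array, with circles for Floxed, triangles for LKO, colors for slides and black lines for group means. The LKO means of Rars/Rars2 and Sars/Sars2 lie at -0.43 and -0.50, and the 4 lowest triangles of Sars/Sars2 are on slide 3.

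Genes that work with the synthetases were listed by role, and all 29 were measured. Of these 1 passed as higher and 1 as lower in limma, or 6.9% beside 8.35% of all genes. Gtpbp3, which modifies mitochondrial tRNAs at the wobble base, measured 7.09, 7.47 and 8.02 in Floxed and 7.48, 8.03 and 8.49 in LKO livers (log2 difference 0.50, SE 0.18, exact permutation p = 0.0325, adjusted p = 0.442). Sephs1, a relative of the enzyme that makes selenophosphate, measured 6.39, 6.76 and 7.0031 in Floxed and 6.26, 6.45 and 6.66 in LKO livers (-0.26, SE 0.11, exact permutation p = 0.0498, adjusted p = 0.565). The groups overlapped for both genes, and on slide 2 their differences were 0.33 and -0.06.

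No other partner gene passed the threshold. Editing enzymes that remove wrongly joined amino acids (Dtd1, Dtd2, Aarsd1 and Prorsd1) differed by 0.04 to 0.14. The amidotransferase subunits Gatb, Gatc and Qrsl1, which complete glutaminyl-tRNA in mitochondria, differed by 0.07, -0.01 and -0.09, and Mtfmt, which formylates the initiator, by 0.13. Sepsecs and Pstk, which turn the seryl-tRNA made by Sars into selenocysteinyl-tRNA, differed by -0.19 and 0.16. The elongation factors that receive charged tRNAs differed by 0.01 for Eef1a1 in the cytosol and by 0.05 for Tufm in mitochondria.

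The amino acid response was read from 19 genes, of which 18 were measured and Slc7a11 was too dim. Atf4 had outlier spots in Floxed 1 and LKO 4, which were left out. On the other 5 arrays of each genotype it measured 13.50, 13.96 and 14.14 in Floxed and 13.59, 13.86 and 13.99 in LKO livers. The log2 difference of Atf4 was -0.03 (SE 0.14, exact permutation p = 0.865), and its translation was not measured. The kinase Eif2ak4, with values on all arrays, differed by 0.09 (SE 0.12). Passing genes numbered 2 of 18 (11.1%), beside 8.35% of all genes. Ddit4, an inhibitor of mTORC1, was higher, with 9.37, 9.91 and 10.14 in Floxed and 9.95, 10.29 and 11.22 in LKO livers (log2 difference 0.53, SE 0.21, exact permutation p = 0.0346, adjusted p = 0.501), and on slide 2 the difference was 0.31 (SE 0.38, slide as a block) and did not pass. Asns, which makes asparagine, was lower, with 6.03, 7.09 and 8.07 in Floxed and 4.64, 5.53 and 8.21 in LKO livers (-1.18, SE 0.54, exact permutation p = 0.0866, limma p = 0.0484, adjusted p = 0.598). LKO 6 held the highest Asns value of all and LKO 1 the lowest, and on slide 2 the difference was -2.45 (SE 0.84, slide as a block), past the unadjusted threshold. Trib3, Chac1 and Fgf21, further targets of the pathway, differed by 0.38, -0.47 and 0.27 with no call, and 7 of 18 genes were higher in LKO livers.

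**Figure D5:**
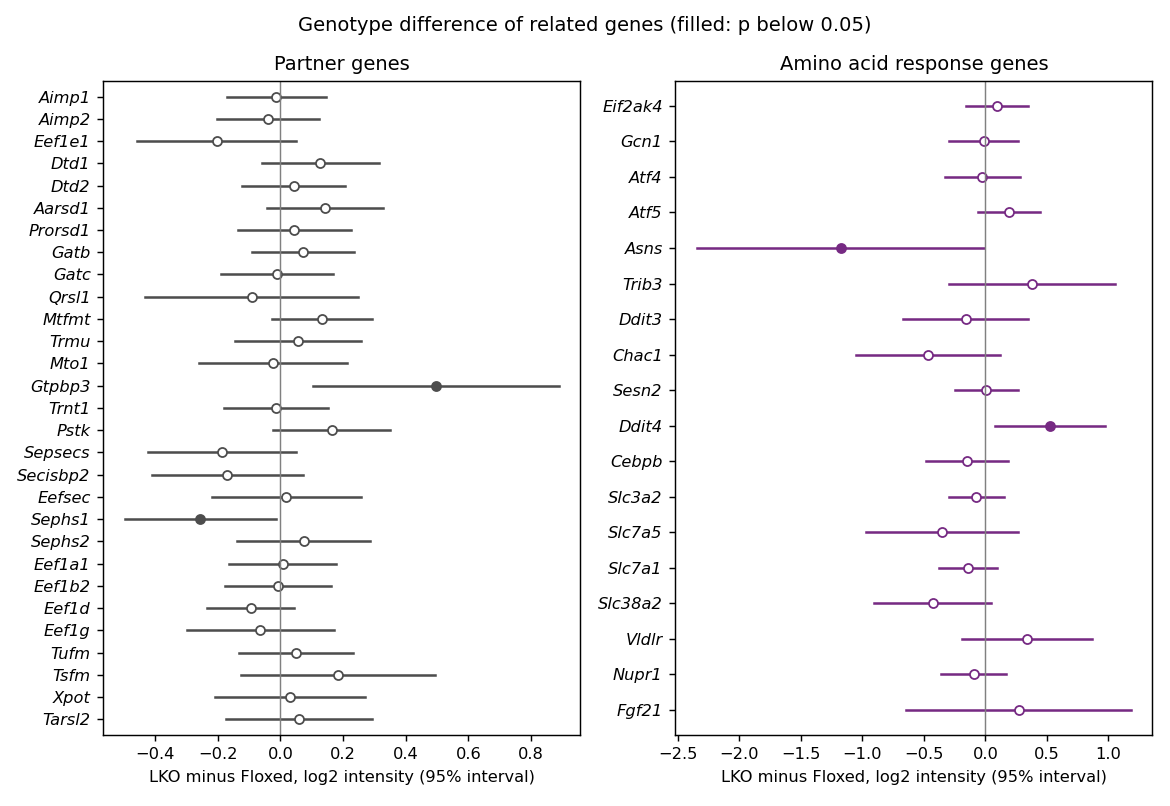
Log2 difference LKO minus Floxed (x axis, with a wider scale on the right) and its 95% interval for 29 partner genes and 18 amino acid response genes (y axis); filled points have an unadjusted limma p below 0.05. Gtpbp3 and Sephs1 are filled on the left, and Asns at -1.18 and Ddit4 at 0.53 on the right.

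Among the synthetases known as targets of Atf4 (13 listed from general knowledge, 12 measured), 0 passed in limma at the unadjusted threshold, beside 8.35% of all genes. With 12 genes a count of 0 lies near that share. Of the 12, 5 were higher and 7 lower, beside 48.8% higher over all genes, and their median log2 difference was -0.02. Promoter windows were found for 13 of 20 cytosolic and 14 of 16 mitochondrial synthetases. These windows, 250 bases before to 50 after the gene start, were searched on both strands for TGATGNAA, the core of the element that C/EBP and Atf4 bind, whose other strand reads TTNCATCA. It was present in 5 of 13 cytosolic windows, in 0 of 15 windows of 14 mitochondrial genes, in 7 of 22 windows of amino acid response genes and in 3.97% of all 32851 promoter windows. The matches of Gars, Iars, Tars and Yars are printed with 12 bases on either side, along the gene, with the match in capitals, to show the element in these synthetase genes (RefSeq, GRCm38.p6).
Gars, chr6:55037959-55037990, plus strand: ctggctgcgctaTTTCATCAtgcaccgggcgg
Iars, chr13:49682125-49682156, plus strand: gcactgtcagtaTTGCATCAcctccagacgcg
Tars, chr15:11399654-11399685, minus strand: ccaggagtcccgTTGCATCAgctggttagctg
Yars, chr4:129189894-129189925, plus strand: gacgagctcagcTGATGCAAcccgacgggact

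The matches of Gars and Tars begin at -30 and -15 from the gene start, and those of Iars and Yars at 8 and 4. Gars, Iars and Tars differed by -0.01, -0.08 and 0.07 between genotypes, and Yars lay below the filter. A match describes letters in the window and does not show that a factor binds there.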

How the data were processed

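Liver RNA of 12 mice was hybridized to Agilent single-color arrays, 1 mouse per array. The study's methods name a RiboPure kit and the labels TRIzol with a Promega column for the RNA. The authors deposited, per spot, the processed intensity of Feature Extraction (background and spatial trend removed, not normalized between arrays; version 9.5.1.1 in the submitters' processing notes, 10.7.1.1 in the file headers) and a table of quantile-normalized intensity values. Here control spots (1377 per array) were dropped, log2 processed intensity was quantile-normalized, outlier spots (0.298%) were set missing, and the filter required a probe to be well above background on every array, which left 20404 probes. That mark stood in for the detection p-value of the study's methods, which is not used here. RefSeq accessions named genes (94.3% of 28389 probes matched), and the brightest probe stood for a gene. A gene with no value in a genotype was dropped, and some items are not reported here. limma 3.58.1 (R 4.3.3, lmFit and eBayes, no covariates) compared genotypes, with Benjamini-Hochberg adjustment over all genes. Single values were compared by two-sided exact permutation with scipy 1.17.1, over 924 arrangements for 6 against 6 arrays, 210 without LKO 1 and LKO 2, and 252 for Atf4.

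The members, the gene lists and the tests were chosen with earlier results of these data known. Named in full were the synthetases for serine, glycine and cysteine, Phgdh, each synthetase past the threshold, and the 3 cytosolic and 3 mitochondrial enzymes with the largest difference; Yars, Nars, Kars, Rars2, Lars2, Atf4, Asns, Ddit4 and other partner genes were added as called or to show the range, some after their values were seen. Lists also covered Kupffer, stellate, cholangiocyte, lymphocyte, adipocyte and blood cell markers, of which 0 of 21 measured passed in limma. The fit was tested on simulated data, and with 200 of 16915 genes shifted by a log2 difference of 0.5 it recovered 91.5% of them at the unadjusted threshold. That share belongs to the fit without slide, and recovery with slide as a block was not tested. With slide as a block 317 of 16915 genes passed in the real data, in place of 1413. The share is therefore no measure of what these arrays can detect where slide matters. The precision is limited by the number of arrays and by the overlap of genotype and slide.

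Alternatives covered scaling, the authors' table, normexp background correction (offset 50, on the raw median intensity), the filter on dim probes, outlier spots, the mean of all probes of a gene, the slide, the replicate number, the methods' t-test, thresholds and each array left out. Leaving out both LKO 1 and LKO 2, and each array for the pairs, was added after seeing the data.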

Additional observations from a re-analysis of the deposited data

Results flagged for a closer look

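In 68 groups of 6 values (33 synthetases and Phgdh in both genotypes) 3 held a value far from the others, where chance gives about 1 in 20 groups, or 3.4. Sars2 in Floxed 2 was 8.86, while the other Floxed mice were at 8.16 to 8.33. Iars2 in Floxed 1 was 8.73, with the others at 9.0035 to 9.07. Vars2 in LKO 5 was 7.91, with the others at 7.56 to 7.66. No array carried more than 1 of them.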

How the results depend on the processing

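Sars2 and Rars kept their direction under all alternatives run. No synthetase passed with slide as a fixed block, on slide 2 alone, after adjustment or at an absolute log2 difference of at least 1 in limma, where all genes gave 317, 512, 0 and 88 calls and the amino acid response and partner genes 1, 1, 0 and 1 in place of 4. With the methods' t-test 0 synthetases were higher. With no filter on dim probes (2791 calls over all genes) or with a significant positive signal on all arrays, 2 synthetases were lower, Rars and Yars. Scaling to the 75th percentile gave 2 amino acid response and partner genes and turned the share of higher calls over all genes from 58.9% to 78.1% (1127 of 1443). Without LKO 1 and LKO 2, 2 synthetases were higher (Sars2 and Tars2), all genes gave 2172 calls, and the isoleucine pair (Iars and Iars2) was 0.011.

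On slide 2 the sign turned for 10 of 33 synthetases (Hars, Lars, Mars, Sars, Vars, Wars, Ears2, Hars2, Rars2 and Tars2) and for 3 of 11 pairs. Among the synthetases named in full, signs turned for Sars (0.069 with slide as a block and on slide 2), Gars and Cars (0.0075 and 0.021 with normexp), Cars2 (-0.055 for the mean of its probes), Vars (-0.021) and Tars2 (-0.13, both with slide as a block and on slide 2). On slide 2 the pairs for histidine, arginine, serine, threonine and tryptophan shifted by 0.11, -0.13, -0.055, 0.29 and -0.15. Phgdh was -0.34 with 75th-percentile scaling and did not pass. The cause was not tested.

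Leaving out single arrays gave 1103 to 1837 calls over all genes, 0 to 2 synthetases higher, 1 lower, and 2 to 7 amino acid response and partner genes, with 7 without Floxed 6 and 2 without Floxed 2, Floxed 3 or LKO 2. Sars2 ranged from 0.31 to 0.54 and was not called without any of Floxed 1, 3, 4, 5 and 6 or LKO 3, 4 and 5. The other ranges were -0.11 to -0.03 for Sars, -0.041 to 0.023 for Gars, -0.34 to -0.25 for Rars, -0.59 to -0.39 for the serine and -0.52 to -0.38 for the arginine pair, whose exact permutation p stayed below the threshold. They were -0.18 to -0.069 (Aars/Aars2), -0.051 to 0.036 (Iars/Iars2), -0.064 to 0.043 (Lars/Lars2), -0.17 to 0.017 (Tars/Tars2) and -0.0037 to 0.21 (Wars/Wars2). Pars2 reached 0.28 and was called without Floxed 6 or LKO 1.

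Mice of equal replicate number carry adjacent animal numbers in the labels, and Floxed mice were littermates, but no label says which mice share a litter, so that pairing by litter is possible and not established. The correlations of their deviations were 0.0089, -0.19, 0.15, 0.32, -0.24 and 0.12, and of the LKO mice only number 4 matched its own number best. With the replicate block 0 synthetases were higher (Sars2 at 0.43 did not pass) and 1 lower, Ddit4 did not pass, and 50.4% of 1428 calls were higher.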
